A study of Mus musculus with 2 samples.

Results

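The genes described here are 4 cation-chloride cotransporters (Slc12a2, Slc12a4, Slc12a5 and Slc12a7) and 5 kinases that act on them (Wnk1, Wnk2, Wnk3, Stk39 and Oxsr1). They were picked by symbol, and all 9 were found among the 43346 annotated genes quantified, with 63 transcript entries between them. The tissue was frontal cortex of adult C57BL/6J mice aged 8 weeks, with no treatment or genetic change in the labels, and the labels describe it as a mix of male and female littermates. It forms 1 group of 2 libraries of polyadenylated RNA, which the labels call biological replicates and which carry the same donor identifier. Sex-linked RNA, given below, splits the libraries despite that identifier. How their spread compares with that between unrelated animals therefore cannot be told. A lone group allows no comparison of conditions: the data give levels within the tissue, the use of transcripts, and differences between the libraries.

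Cation-chloride cotransporters move chloride across the cell membrane together with potassium or with sodium and potassium. NKCC1, made from Slc12a2, loads cells with chloride, whereas potassium-chloride cotransporters, among them KCC1, KCC2 and KCC4 from Slc12a4, Slc12a5 and Slc12a7, let chloride out; KCC2 from Slc12a5 is the neuronal one, and the low chloride it maintains lets GABA and glycine inhibit mature neurons. WNK kinases sense chloride and activate the kinases SPAK (Stk39) and OSR1 (Oxsr1), which phosphorylate the cotransporters, an event that activates NKCC1 and inhibits the KCCs.

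Expected counts, the estimated numbers of fragments per gene, summed to 90476207 in replicate 2 and 106084891 in replicate 1. All 5 neuronal, all 4 astrocyte and all 4 oligodendrocyte marker genes reached 1 TPM in both libraries, and 1 of 4 choroid plexus markers did. Levels are given in TPM, each entry's share of all transcripts after adjustment for length, and 14210 annotated genes were at 1 TPM or more in both. Xist stood at 110.3 TPM in replicate 2, against 0.25 TPM in replicate 1, and the Y-linked gene Eif2s3y at 0.05 TPM in replicate 2, against 53.8 TPM in replicate 1, so the libraries differ in sex-linked RNA although both are labelled as pooled from both sexes. The Y-linked genes Ddx3y, Kdm5d and Uty split the libraries in the same way as Eif2s3y. A difference between the libraries and a difference between such sources cannot be told apart. Every ratio between the libraries, that of X-linked Wnk3 included, also sets a library with Xist against one with Y-linked RNA.

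All 9 genes were above 1 TPM in both libraries, and their levels spanned the range from 147 ± 3.01 TPM for Slc12a5 to 2.32 ± 0.269 TPM for Slc12a7 (mean ± SD, n = 2). Slc12a5 stood at the 95.5 percentile of the genes at 1 TPM or more and Wnk1, at 87.8 ± 7.85 TPM, at the 91.8 percentile. Wnk2 followed at 33.4 ± 0.255 TPM, Oxsr1 at 24.8 ± 2.59 TPM, Stk39 at 19.1 ± 0.948 TPM, Slc12a2 at 14.2 ± 0.127 TPM, Slc12a4 at 13.4 ± 1.70 TPM and Wnk3 at 4.83 ± 0.750 TPM. Neighbours in this order were called apart where the ratio had the same sign in both libraries, its mean exceeded its SD, and the deposited TPM intervals did not overlap in either library. By that rule 7 of 8 neighbouring pairs were apart. The exception was Slc12a2 over Slc12a4, with a log2 ratio of 0.20 in replicate 2 and -0.04 in replicate 1. Because the mean TPM of these same libraries set the order, the direction of each ratio was largely given in advance. The share of other gene pairs apart by this rule was not computed, so the count describes the order and does not test it. A sign-flip test over 2 libraries cannot give a p below 0.5, so no p is given for any ratio. In a bulk tissue, fewer cells of a type and less RNA per cell cannot be told apart, and this holds for every level here.

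**Figure D1:**
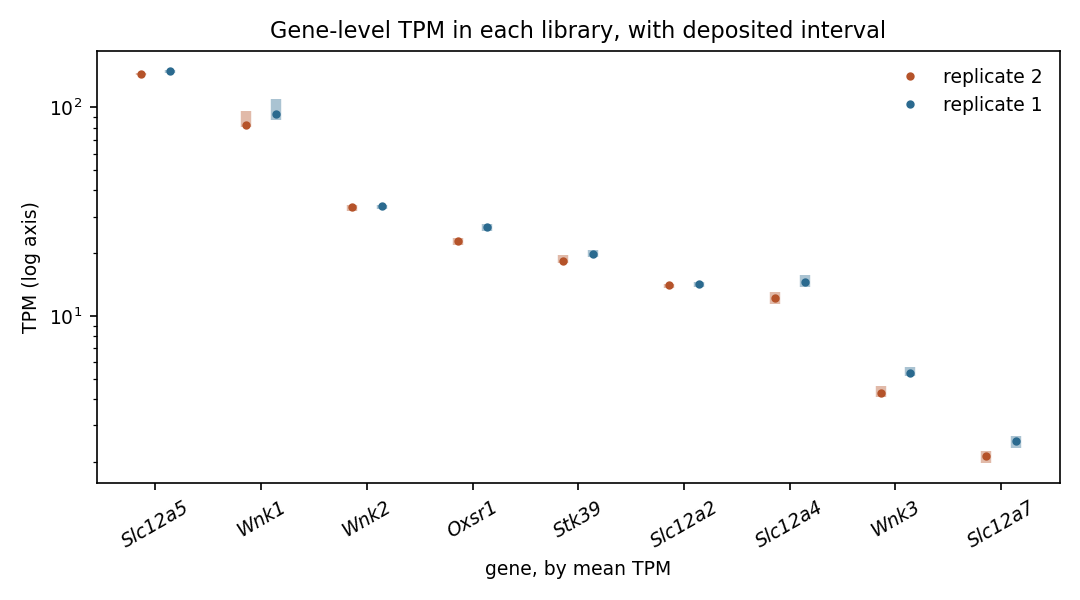
TPM of the 9 genes on a log axis, as 1 point per library with replicate 2 left of replicate 1; pale bars are the deposited TPM intervals. Slc12a5 and Wnk1 lie highest and Slc12a7 lowest, and Slc12a2 and Slc12a4 are the neighbours whose order differs between the libraries.

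Slc12a5 (ENSMUSG00000017740.12, chr2:164960802-164999731, plus strand, mm10) encodes KCC2, which extrudes chloride from neurons. It held 145 TPM in replicate 2 and 149.5 TPM in replicate 1, from 47928 and 57957 expected counts, a difference of -0.04 in log2 TPM. The gene has alternative first exons: transcripts from the upstream start encode KCC2a and those from the downstream start KCC2b, which is known as the main form in mature rodent cortex. The starts lie 7181 nt apart. Sequences at the starts are shown because the starts separate the forms. The bases just before each start come first (RefSeq, GRCm38.p6, plus strand, chr2:164960596-164960801 and chr2:164967738-164967982). No quantified entry of the gene holds these bases in an exon. The coding part of the upstream first exon follows (GENCODE M21, mm10, plus strand, chr2:164960883-164961003). Capitals mark an E-box in the bases before the starts and the start codon in the coding part.
Before the upstream start: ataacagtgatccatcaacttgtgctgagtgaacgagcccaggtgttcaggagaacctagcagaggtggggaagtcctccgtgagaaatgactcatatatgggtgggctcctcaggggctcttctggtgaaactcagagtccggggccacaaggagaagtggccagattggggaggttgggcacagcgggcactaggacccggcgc
Before the downstream start: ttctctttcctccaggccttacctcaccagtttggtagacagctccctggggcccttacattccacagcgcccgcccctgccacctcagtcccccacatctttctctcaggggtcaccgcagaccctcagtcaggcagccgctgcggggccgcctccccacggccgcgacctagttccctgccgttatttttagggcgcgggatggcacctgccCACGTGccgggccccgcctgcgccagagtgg
Coding part of the upstream first exon: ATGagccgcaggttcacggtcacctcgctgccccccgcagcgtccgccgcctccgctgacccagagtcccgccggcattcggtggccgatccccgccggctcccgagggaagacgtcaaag

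The E-box searched was CACGTG, a sequence that USF transcription factors are known to bind, and such a site has been described at the rodent KCC2b promoter. It reads the same on both strands, so a single search covers both. The 245 nt before the downstream start held 1 match, with 66.5% G and C and 16 CpG, and the 206 nt before the upstream start held none, with 57.3% G and C and 6 CpG. Of 32851 RefSeq windows of 300 nt around gene starts, 7.15% held the motif. Among the 10 windows of the 8 genes with one here, it also occurred once near Slc12a7, at a position that both of its overlapping windows hold, and in no window of Slc12a4, Wnk1, Wnk2, Wnk3, Stk39 or Oxsr1. A match describes the letters and is no measure of binding.

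The downstream-start entry Slc12a5-201, the only complete coding entry of the gene in the quantification (protein-coding, with an annotated start and end), took 59.0% of the gene's TPM in replicate 2 and 70.3% in replicate 1. Its level was 85.7 TPM in replicate 2, against 105 TPM in replicate 1, with deposited intervals of 84.0 to 86.1 and 103 to 105.5 TPM. Slc12a5-205, a retained-intron entry of 3001 nt at the 3′ end, took 33.7% in replicate 2 and 19.3% in replicate 1. Its level was 48.9 TPM in replicate 2, against 28.9 TPM in replicate 1. The deposited intervals were apart between the libraries for both entries, and also for the gene total, at 142 to 145.9 TPM in replicate 2 and 146.7 to 150.4 TPM in replicate 1. Of the bases of Slc12a5-205, 83.2% lie in exons of complete coding transcripts. Slc12a5-204, another retained-intron entry of 744 nt, took 6.25% in replicate 2 and 9.59% in replicate 1.

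Upstream-start RNA was represented by Slc12a5-202 alone, a processed-transcript entry of 462 nt. It had 1.62 TPM in replicate 2 and 1.10 TPM in replicate 1, from 29.8 and 23.1 expected counts. Set against Slc12a5-201, it made up 1.86% of their joint TPM in replicate 2 and 1.03% in replicate 1, and 0.0797% and 0.0456% of their joint counts. The 2 shares differ widely because TPM divides by the short length of this entry. The complete coding transcript from the upstream start, which M21 lists, was not among the quantified entries, so these shares describe the short entry and not all KCC2a RNA.

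Slc12a4 and Slc12a7 were lower. Slc12a4 (ENSMUSG00000017765.12, chr8:105943590-105966097, minus strand) encodes KCC1, the widely expressed member tied to cell volume. It held 12.2 TPM in replicate 2 and 14.7 TPM in replicate 1, and Slc12a5 exceeded it 11.0-fold (log2 ratio 3.46 ± 0.15, n = 2). Slc12a7 (ENSMUSG00000017756.8, chr13:73733094-73816754, plus strand), which encodes KCC4, held 2.13 TPM in replicate 2 and 2.51 TPM in replicate 1. Slc12a5 stood 63.7-fold above Slc12a7 (5.99 ± 0.14, and 5.36 ± 0.04 on complete coding entries alone), and Slc12a7 stood below Slc12a4 by a log2 ratio of -2.53 ± 0.02. All 3 ratios were apart by the rule above.

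Transcript use of Slc12a4 was led by the complete coding entry Slc12a4-202, with 60.0% of TPM in replicate 2 and 62.6% in replicate 1. A further complete coding entry, Slc12a4-201, took 13.1% and 7.02%. The retained-intron entries Slc12a4-204 and Slc12a4-205, of 715 and 461 nt, took 16.6% and 10.2% in replicate 2, and 10.2% and 20.2% in replicate 1. Both orders occurred, so which short entry led depended on the library. Together these short entries took 26.9% of TPM in replicate 2 and 30.4% in replicate 1, but 3.99% of counts in both. Slc12a7 was quantified as a single complete coding entry, Slc12a7-201, against 11 transcripts in M21, so its forms were not resolved.

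Slc12a2 (ENSMUSG00000024597.10, chr18:57878678-57946821, plus strand) encodes NKCC1, the chloride importer, which in brain is made by glia and vessels as well as by neurons. It held 14.1 TPM in replicate 2 and 14.3 TPM in replicate 1, from 6665 and 7460 expected counts on its sole quantified entry of 6520 nt. The libraries agree within their deposited intervals, which ran from 13.7 to 14.3 and from 13.9 to 14.5 TPM. Choroid plexus, an epithelium rich in NKCC1, was marked by Ttr, Kl, Folr1 and Aqp1, whose summed level was 9.56 TPM in replicate 2 and 12.1 TPM in replicate 1. Aqp1, which vessels and red cells make too, gave 7.42 and 10.1 TPM of that sum, and Ttr stood at 0.85 and 0.93 TPM. Their part in the level of Slc12a2 was not tested.

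Among the WNK kinases Wnk1 led on the gene scale. Wnk1 (ENSMUSG00000045962.12, chr6:119923969-120038672, minus strand) is the widely expressed family member. It held 82.2 TPM in replicate 2 and 93.3 TPM in replicate 1, and its deposited intervals, 80.9 to 95.6 and 87.3 to 109 TPM, were the widest of the 9 genes. It exceeded Wnk2 2.63-fold (log2 ratio 1.39 ± 0.12), Wnk3 18.2-fold (4.19 ± 0.10) and Wnk4 14.8-fold (3.89 ± 0.23, n = 2 each). These ratios were apart by the rule on gene TPM, but their size depended on how short entries were treated. On the TPM of complete coding entries alone, and with all counts of a gene placed on its longest complete coding entry, the log2 ratio to Wnk2 was 0.23 ± 0.00 and 0.15 ± 0.00, that to Wnk3 4.38 ± 0.14 and 2.85 ± 0.17, and that to Wnk4 1.98 ± 0.08 and 2.51 ± 0.12. On gene TPM Wnk1 took 66.5 ± 1.70% of the summed WNK TPM.

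The level of Wnk1 came mostly from short entries. Wnk1-208, annotated as a retained intron of 2934 nt at the 3′ end, held 36.9 TPM in replicate 2 and 37.3 TPM in replicate 1, or 44.9% and 40.0% of the gene. Of its bases, 99.1% lie in exons of complete coding transcripts. The coding fragments Wnk1-216, of 843 nt, and Wnk1-222, of 1221 nt, held 21.9% and 9.79% in replicate 2, and 16.4% and 10.2% in replicate 1. The most abundant complete coding entry, Wnk1-202 of 10575 nt, held 9.70 TPM in replicate 2 and 11.4 TPM in replicate 1, or 11.8% and 12.2%. All 5 complete coding entries together took 18.1% of TPM in replicate 2 and 17.0% in replicate 1, but 54.2% and 55.8% of the counts. Length alone separates the TPM share from the count share here.

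A single short entry shows how far this can go. Wnk1-213, a coding fragment of 181 nt, had an effective length of 3.78 nt in replicate 2 and 4.23 nt in replicate 1. With 0 counts in replicate 2 it stood at 0 TPM, and with 3 counts in replicate 1 it stood at 8.57 TPM, or 9.18% of the gene. That amount is most of the 11.1 TPM by which the gene level was higher in replicate 1, and its deposited interval in replicate 1 ran from 2.21 to 22.7 TPM.

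Some Wnk1 transcripts carry a long alternative exon, chr6:119962397-119963632 (1236 nt, minus strand, exon 9 of Wnk1-203), which Wnk1-203 and Wnk1-223 hold and Wnk1-202 and Wnk1-204 lack. A further complete coding entry, Wnk1-218, is 1 exon of 1426 nt that spans it. In human WNK1 a long alternative exon named HSN2 is known from neuronal transcripts, and changes in it cause a hereditary sensory neuropathy. The first 120 bases of the mouse exon, all coding, are shown because they tell the 3 entries with the exon from those without it (GENCODE M21, mm10, chr6:119963513-119963632, minus strand, no part marked).
Wnk1 long exon: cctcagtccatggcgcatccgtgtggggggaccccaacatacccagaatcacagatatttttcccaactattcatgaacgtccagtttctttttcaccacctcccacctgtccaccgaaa
Wnk1-203 and Wnk1-223 took 16.5% of the TPM of the 4 entries with several exons in replicate 2 and 16.0% in replicate 1, and 17.6% and 17.1% of their counts. In replicate 2 Wnk1-203 stood at 1.11 TPM and Wnk1-223 at 1.19 TPM, and in replicate 1 they stood at 1.42 and 1.02 TPM. Wnk1-218 held 0.96 TPM in replicate 2 and 0.68 TPM in replicate 1, and with it the share of all 5 complete coding entries was 21.9% in replicate 2 and 19.6% in replicate 1.

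**Figure D2:**
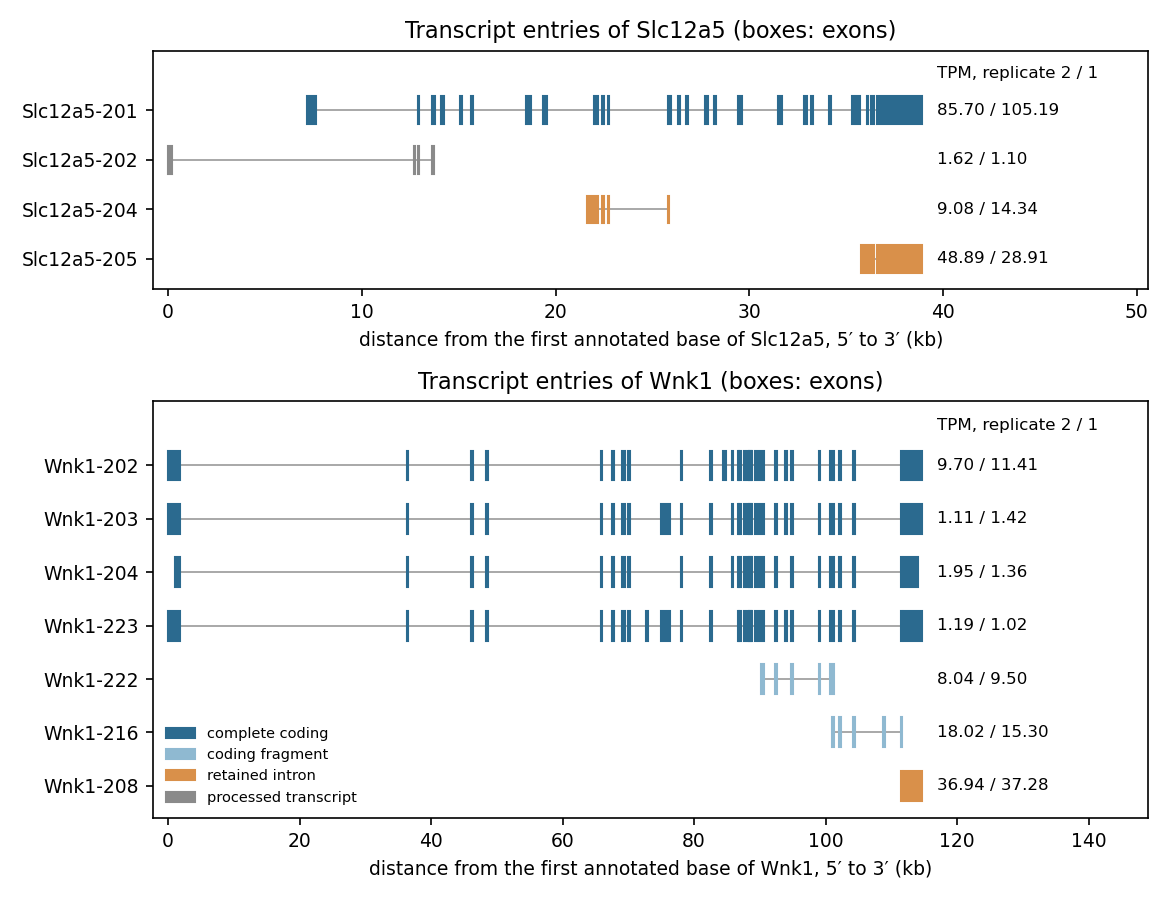
Exons (boxes, coloured by kind of entry) of the described entries of Slc12a5 and Wnk1 against distance from the first annotated base in kb, with TPM in replicate 2 and replicate 1 at the right; narrow exons are widened to be visible. Slc12a5-205 and Wnk1-208 cover the 3′ end, where complete coding entries also have exons, and the upstream first exon of Slc12a5 is held by Slc12a5-202 alone.

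Wnk2 (ENSMUSG00000037989.11, chr13:49036303-49148014, minus strand) is a WNK kinase with high levels in brain. It held 33.2 TPM in replicate 2 and 33.5 TPM in replicate 1, and exceeded Wnk3 6.95-fold (log2 ratio 2.80 ± 0.21, n = 2), with a log2 ratio of 4.14 ± 0.14 on complete coding entries. The coding fragment Wnk2-206, of 3392 nt, took 48.5% in replicate 2 and 47.0% in replicate 1. A further coding fragment, Wnk2-209, took 8.72% and 11.5%. The 8 complete coding entries together took 38.3% and 40.3% of TPM, and 56.4% and 57.0% of counts. Their split was less steady: Wnk2-202 took 16.8% in replicate 2 and 11.2% in replicate 1, and Wnk2-201 2.27% and 8.97%. Wnk2-205 took 6.32% and 9.06%. Wnk2-211, of 6628 nt, has as many exons and coding bases as Wnk2-201, of 6630 nt, and nearly the same span. It took 7.46% and 6.80%, and the shares of these similar entries may not be resolved from each other. The deposited intervals of Wnk2-201 and of Wnk2-211 overlapped between the libraries, and those of Wnk2-209 were apart.

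Wnk3 (ENSMUSG00000041245.9, chrX:151198078-151320152, plus strand) encodes a WNK kinase of neurons. It held 4.30 TPM in replicate 2 and 5.36 TPM in replicate 1, from 1943 and 2675 counts. The processed-transcript entry Wnk3-203, of 6410 nt and with 71.2% of its bases in exons of complete coding transcripts, took 84.5% in replicate 2 and 84.8% in replicate 1. The 3 complete coding entries held 0.67 TPM in replicate 2 and 0.82 TPM in replicate 1, or 15.6% and 15.3%. Of these, Wnk3-206 took 11.4% and 7.57%. The locus A230072E10Rik overlaps Wnk3 on the opposite strand, with 77 counts in replicate 2 and 92 in replicate 1. The libraries are stranded per the labels, but the strand setting of the counting is not given in the sources used here.

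In the kinases below the WNKs a complete coding entry led. Stk39 (ENSMUSG00000027030.11, chr2:68210445-68472268, minus strand), which encodes SPAK, held 18.4 TPM in replicate 2 and 19.8 TPM in replicate 1, and its complete coding entry Stk39-201 took 88.8% and 90.5%. Its retained-intron entry Stk39-203 took 10.4% and 7.63%. Oxsr1 (ENSMUSG00000036737.8, chr9:119238432-119322427, minus strand), which encodes OSR1, held 23.0 TPM in replicate 2 and 26.6 TPM in replicate 1. Its complete coding entry Oxsr1-201 took 69.7% in replicate 2 and 65.6% in replicate 1, and the retained-intron entry Oxsr1-203, of 780 nt, took 29.7% and 33.7%. Oxsr1-203 drew 5.11% of the gene's counts in replicate 2 and 6.18% in replicate 1. On the gene scale Stk39 stood below Oxsr1 with a log2 ratio of -0.38 ± 0.08 (n = 2). The 4 WNK genes together reached 126 TPM in replicate 2 and 138 TPM in replicate 1, 3.01-fold the sum of Stk39 and Oxsr1 (log2 ratio 1.59 ± 0.02, n = 2). Both ratios were apart by the rule.

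**Figure D3:**
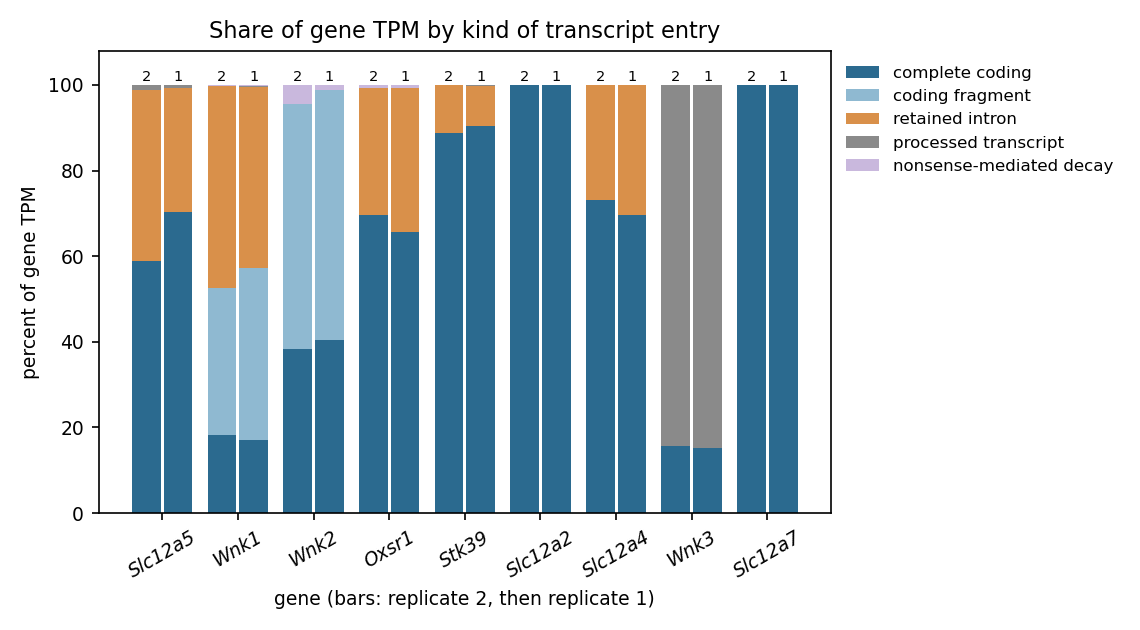
Percent of each gene's TPM by kind of transcript entry, with the replicate 2 bar left of the replicate 1 bar. Complete coding entries held 18.1% and 17.0% for Wnk1 and 15.6% and 15.3% for Wnk3, against 88.8% and 90.5% for Stk39.

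Over the 9 genes, 24 of the 63 entries held 5% or more of their gene in both libraries. Because short entries weigh heavily in TPM, the levels were computed in 2 further ways, both chosen after the data were seen: the TPM of complete coding entries alone, and all counts of the gene placed on its longest complete coding entry. Slc12a5 stayed highest, at 95.4 ± 13.8 TPM on complete coding entries and 115 ± 7.36 TPM with all counts on the longest entry. Wnk1 stood at 15.4 ± 0.693 TPM and 25.0 ± 1.01 TPM, against 87.8 ± 7.85 TPM for the gene sum. Wnk2 stood at 13.1 ± 0.587 and 22.5 ± 0.842 TPM, and Wnk3 at 0.745 ± 0.106 and 3.49 ± 0.542 TPM (n = 2 each). For these genes the longest entry itself held almost no counts. Wnk2-203 had 0 in both libraries, and Wnk3-201, of 8551 nt, had 9.52 in replicate 2 and 0 in replicate 1. Slc12a2 and Slc12a7, with 1 entry each, stayed at 14.2 ± 0.127 and 2.32 ± 0.269 TPM on complete coding entries.

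The order changed on both scales, but by unequal amounts. With all counts on the longest entry only Oxsr1 and Stk39 changed places, to 5 and 4 of 9, and the other 7 genes kept theirs. On complete coding entries Wnk1 took place 4 of 9 in place of 2, Wnk2 place 6 in place of 3, and Stk39 place 2 in place of 5. The log2 ratio of Stk39 over Oxsr1, -0.38 ± 0.08 on gene TPM, was 0.03 ± 0.00 on complete coding entries and 0.05 ± 0.03 with all counts on the longest entry. The WNK sum over the sum of Stk39 and Oxsr1, 1.59 ± 0.02 on gene TPM, was -0.03 ± 0.03 on complete coding entries and 0.61 ± 0.03 with all counts on the longest entry. Within the WNK genes, Wnk1 took 46.4 ± 0.219% and Wnk2 39.5 ± 0.178% of complete coding TPM, with Wnk4 at 11.8 ± 0.625% and Wnk3 at 2.24 ± 0.230% (n = 2).

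**Figure D4:**
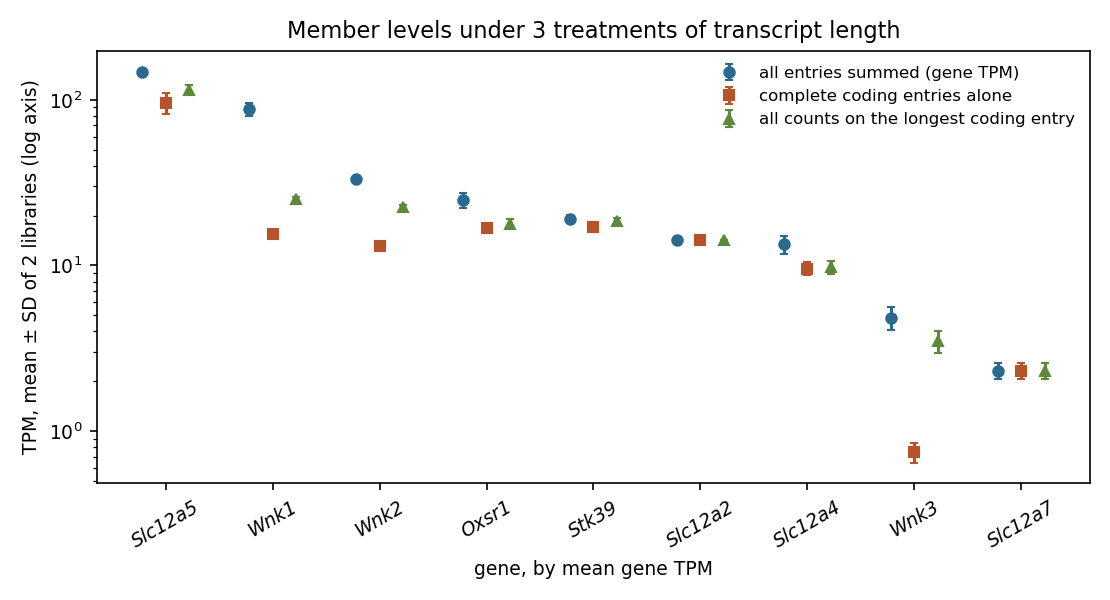
TPM (mean ± SD of 2 libraries, log axis) of the 9 genes from all entries summed, from complete coding entries alone, and from all counts placed on the longest complete coding entry. The 3 values lie close together for Stk39, Slc12a2 and Slc12a7 and far apart for Wnk1 and Wnk3.

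Between the libraries, no gene of the 9 had a log2 ratio of CPM (library-scaled counts, replicate 2 over replicate 1) larger than 0.5 in size, and 5.21% of the 14599 genes averaging at least 1 TPM did. The ratios ran from -0.18 for Wnk3 (counting interval -0.27 to -0.10) to 0.12 for Slc12a2 (0.07 to 0.17), with a median of 0.01, and the median over all those genes was 0.00. Slc12a5 had a ratio of 0.01 (-0.01 to 0.02), the tightest of the set, and Wnk1 and Wnk2 stood at 0.06 each. Slc12a7, the gene with the fewest counts, had -0.10 (-0.24 to 0.03). For 5 of the 9 genes the deposited TPM intervals were apart between the libraries, beside 48.7% of all tested genes, so that count is near the background. TPM itself was lower in replicate 2 for all 9 genes, and for 11169 of the 14599, where the median log2 TPM ratio was -0.13. Of the 7 genes with 2 or more entries, the leading share moved by over 10 points in Slc12a5 alone, by -11.35 points, and it did so in 13.8% of the 10128 genes tested.

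Cell type markers differed between the libraries too. The summed level of the 4 oligodendrocyte markers was 1915 TPM in replicate 2 and 1555 TPM in replicate 1, that of the 4 astrocyte markers 296 and 360 TPM, and that of the 5 neuronal markers 2762 and 2627 TPM. In TPM the neuronal markers differed in both directions. Gad1, of inhibitory neurons, stood at 631 TPM in replicate 2, against 468 TPM in replicate 1. Slc17a7, of excitatory neurons, stood at 401 and 447 TPM. The log2 CPM ratio was only 0.17 for Gad1 and -0.02 for Slc17a7. It was 0.25 for Rbfox3, 0.22 for Snap25 and 0.02 for Syt1. Astrocyte markers were mixed in log2 CPM ratio, with 0.13 for Aldh1l1 and 0.04 for Gja1. Slc1a3, the largest part of that sum, had -0.19, and Aqp4 had -0.37. In TPM, Aldh1l1 alone of these was higher in replicate 2. The 3 microglial markers summed to 63.8 and 97.0 TPM, the 3 endothelial to 72.8 and 81.2 TPM, the 3 mural to 47.9 and 71.8 TPM, the 3 oligodendrocyte precursor markers to 29.3 and 33.1 TPM, and the 3 haemoglobin genes to 616 and 476 TPM. Among the precursor markers the log2 CPM ratio was 0.13 for Gpr17, -0.26 for Pdgfra and -0.23 for Cspg4, although TPM was lower in replicate 2 for each. No marker list was at 0 in either library, and the part of these differences in the ratios of the 9 genes was not tested.

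**Figure D5:**
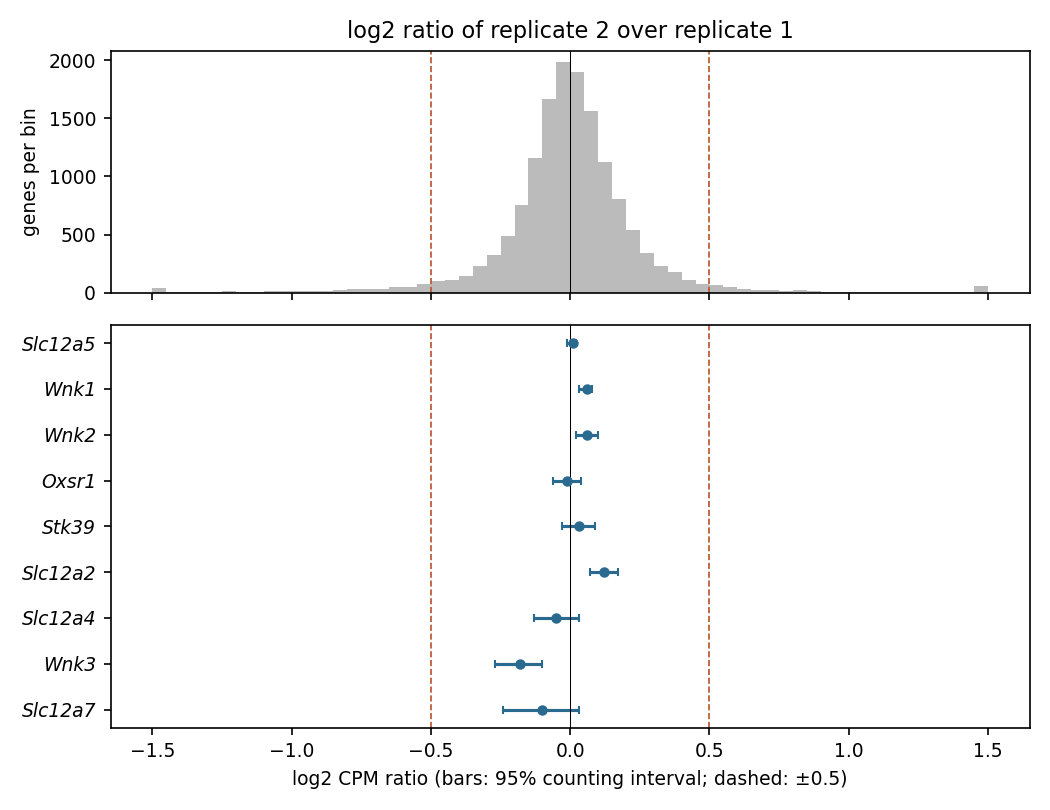
Upper panel, log2 CPM ratio of replicate 2 over replicate 1 for all genes averaging at least 1 TPM, with values beyond the axis gathered in the end bins; lower panel, the 9 genes with 95% counting intervals. Dashed lines mark 0.5 in both directions, and all 9 genes lie between them, from -0.18 for Wnk3 to 0.12 for Slc12a2.

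The rest of the family and the pathway around these genes gave the setting. Slc12a9, a family member with no settled transport role, stood at 17.0 ± 1.30 TPM and Slc12a8 at 1.21 ± 0.219 TPM, both above 1 TPM in each library. The kidney cotransporters Slc12a3 (NCC) and Slc12a1 (NKCC2) had 16 and 11 counts in replicate 2 and 28 and 10 counts in replicate 1, or means of 0.09 and 0.035 TPM.

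The lists below were picked by known role, and 14210 of all 43346 annotated genes were at 1 TPM or more in both libraries. All 8 WNK pathway genes were above 1 TPM. The highest were Klhl2, an adaptor that brings WNK kinases to the ubiquitin ligase, at 59.9 ± 4.86 TPM, Cab39, the scaffold MO25 that activates SPAK and OSR1, at 56.4 ± 4.65 TPM, and Cul3, the scaffold of that ligase, at 40.3 ± 7.69 TPM. Wnk4, the family member best known from kidney, stood at 5.91 ± 0.424 TPM. All 7 genes of proteins that bind or act with KCC2 were above 1 TPM, among them the creatine kinase Ckb at 1903 ± 35.4 TPM and Pacsin1, a membrane-bending protein that binds KCC2, at 122 ± 0.778 TPM. All 10 other chloride and bicarbonate transport genes were above 1 TPM, led by carbonic anhydrase Car2 at 197 ± 18.4 TPM, the sodium-dependent bicarbonate transporter Slc4a10 at 67.2 ± 5.92 TPM and the anion exchanger Slc4a3 at 59.9 ± 4.49 TPM (n = 2 throughout). In these 4 lists no gene was past a log2 ratio of 0.5 between the libraries, beside the same 5.21%, and the list medians were 0.01 for the other SLC12 genes, -0.03 for the WNK pathway, -0.06 for the KCC2 partners and -0.04 for the chloride and bicarbonate genes.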

How the data were processed

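Polyadenylated RNA above 200 nt from frontal cortex was sequenced, per the labels, as stranded paired reads of 101 nt in 2 libraries of 1 group with spike-ins. For each library the authors supplied quantifications of genes and of transcripts on mm10 with annotation M4, per the deposited description; the quantification program is not given in the sources used here. The deposited values are expected counts, not whole numbers, which the authors estimated per entry. The deposited TPM and FPKM are length-adjusted levels over all entries, spike-ins included, and FPKM was not used. The deposited percent is the share of a gene's TPM taken by a transcript. The deposited TPM interval bounds are used as a signal range with no stated level. Annotated genes took 86854784 counts in replicate 2 and 101771589 in replicate 1, spike-ins 3.47% and 3.50%, and entries that name no gene 0.534% and 0.568%.

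Symbols, coordinates and transcript kinds were taken from GENCODE M21 by identifier, ignoring versions (42462 genes, and all 63 transcripts of the 9 genes, 57 of them of the same length in both). Complete coding means a protein-coding entry with an annotated start and end. Promoter windows came from RefSeq and covered 8 of the 9 genes. Some results are not reported here.

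Replicate ratios are log2 CPM of rounded expected counts without spike-ins, with TMM factors from edgeR 4.0.16 and a prior count of 2, over all annotated genes. Intervals are exact conditional binomial at 95% and cover counting error only, since PCR copies are not told from independent molecules. No p-values were computed. Only the replicate ratios were tested on simulated counts, which held counting error and no other spread. Alternatives were posterior means, each library alone, counts, a pseudocount of 1, DESeq2 1.42.0 size factors, library size, spike-ins, prior counts, folds and filters. Genes named are the 9 members, other SLC12 genes and the highest of each further list (up to 3), with transcripts at 5% or more. Wnk4 enters the ratios, and transcripts below 5% were chosen after their values were seen. Members and lists were chosen with earlier results of these data known.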

Additional observations from a re-analysis of the deposited data

How the results depend on the processing

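No paired analysis was possible because the series holds 1 group. Of 314 recomputed values, 248 were classed as unchanged. For ratios between genes and for the order of levels, this class allowed large changes in size. Wnk1 over Wnk2 was so classed at 0.15 with all counts on the longest entry, against 1.39 on gene TPM. Another 48, which were levels, shares, percents and single-gene replicate ratios, moved in size. Ratios between genes became stronger in 8 cases and changed sign in 10. Ratios listed both as neighbours and as paralogs or partners entered more than once. Slc12a2 over Slc12a4 was the ratio that turned on a library, at 0.20 without replicate 1 and -0.04 without replicate 2. It came to 1.34 on counts not divided by length, 0.57 on complete coding entries and 0.54 with all counts on the longest entry. In these last 3 it was apart by sign and SD alone. The interval condition was not applied there, and the deposited gene TPM intervals of this pair overlapped in replicate 1. On complete coding entries Wnk2 over Oxsr1 became -0.35, Oxsr1 over Stk39 -0.03, Stk39 over Oxsr1 0.03, Wnk3 over Slc12a7 -1.64 and the WNK sum over Stk39 and Oxsr1 -0.03. With all counts on the longest entry Oxsr1 over Stk39 became -0.05 and Stk39 over Oxsr1 0.05. On counts Stk39 over Slc12a2 became -0.55, Slc12a5 over Slc12a4 4.24, Slc12a7 over Slc12a4 -1.64 and Wnk1 over Wnk3 3.26. These alternatives differ by construction in the length that divides the counts; those on complete coding and longest entries were added after seeing the data. The percent of genes past the replicate fold was 17.9% at a fold of 0.25, 1.45% at 1, 1.97% for genes averaging at least 10 TPM and 15.6% with no filter. The neighbours apart in the reported direction numbered 7 or 8 under the other alternatives and 5 on complete coding entries. On counts, complete coding entries and longest entries these were called by sign and SD alone. No member passed 0.5 under any scaling run, nor 0.25 or 1 with TMM factors. Rescaling TPM to nuclear protein-coding genes gave 299 TPM for Slc12a5 and 178 TPM for Wnk1. SDs rest on 2 libraries, and the shallowest gene, Slc12a7, on 785 counts in replicate 2 and 1024 in replicate 1.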
